A study of Mus musculus with 6 samples.

Results

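Zeb2, Zeb1 and Prdm1 encode 3 transcription factors of terminal lymphocyte maturation, and the peaks of open chromatin assigned to them were compared between natural killer (NK) cells of 2 genotypes. A peak belonged to a gene if the deposited annotation gave that gene as the nearest one, near or far. This rule found 10 peaks for Zeb2, 1 for Zeb1 and 19 for Prdm1, 30 of 51775 peaks in all. The assay was ATAC-seq, where a transposase cuts accessible DNA and attaches sequencing adapters to it. NK cells of C57BL6 mice were sorted from spleen as CD3-negative, CD5-negative, NK1.1-positive and NKp46-positive cells, from wildtype mice and from mice labelled Rroid deficient, with 50000 cells per genotype and 3 libraries each. Rroid is a noncoding RNA gene beside Id2. The labels give neither the allele nor the age of the mice, and they do not say if the triplicates stand for different animals. P-values therefore measure the spread between these libraries, which may be technical.

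ZEB2 and ZEB1 are related zinc finger repressors that bind E-box sequences through a cluster of zinc fingers at each end of the protein. In NK cells, T-bet induces Zeb2, and ZEB2 is needed for the last steps of maturation and for exit from the bone marrow. Prdm1 encodes Blimp-1, a zinc finger repressor that drives plasma cell differentiation in B cells and accompanies NK maturation, where it promotes granzyme B. MicroRNAs of the miR-200 family are known repressors of both Zeb genes.

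Libraries carry the number at the end of their column's name: 1, 2 and 3 are wildtype, while 4, 5 and 6 are Rroid deficient. They held 27572006 to 47939665 reads in peaks, with the fewest in libraries 4 and 6. Values are normalized reads per peak unless given per kb of peak width, and mean ± SD are over n = 3 libraries. Positions are mm9. A peak was called lower or higher in Rroid-deficient cells at an adjusted p under 0.05 (limma on log2 of the value plus 1, Benjamini-Hochberg over all 51775 peaks). Across the whole peak set, 12.1% of peaks were called lower and 13.8% higher, and the 3 values of one genotype lay wholly apart from those of the other at 40.1% of peaks. All 7 NK markers examined had a peak within 3 kb of the start site, with a summed level of 7454 to 9196 normalized reads per kb in wildtype and 6841 to 8502 in Rroid-deficient libraries. Of these 7 peaks, 2 were called lower, at Klrb1c and Tbx21, and 0 higher. Of 7 T-cell markers 2 had such a peak, Cd3g and Cd5, with a sum of 88.2 to 210.6 and 376.2 to 449.7 per kb. Both were called higher, while no such peak was listed under Cd3e, Cd3d, Cd4, Cd8a or Cd8b1. Of 4 B-cell markers only Ebf1 had such a peak (51.9 to 84.6 and 66.8 to 108.2 per kb, not called). Of 5 myeloid markers 3 had one, Cd68, Spi1 and Itgam, with a sum of 778.6 to 1010 and 773.9 to 951.0 per kb and Itgam called lower. Itgam is also among the downstream NK genes below, so its peak does not mark myeloid cells alone. Of 3 plasma cell markers 2 had such a peak, Sdc1 and Xbp1 (1588 to 1849 and 1268 to 1601, Xbp1 called lower). Most of this sum was Xbp1, with means of 1574 and 1295 per kb, against 113.3 and 144.2 for Sdc1. Of 3 erythroid markers only Klf1 had such a peak (862.1 to 938.0 and 855.8 to 1039, not called). The part of such cells in the results below was not tested. Nor can fewer mature NK cells in the sort be told apart from less open chromatin in each cell.

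The promoters below are shown because the Prdm1 start site lies in one of the strongest changed peaks and because the deepest change near Zeb2 lies just upstream of its start site. They are the 250 bases upstream of a start site in RefSeq (build GRCm38.p6, minus strand). Both genes matched that table by symbol, Zeb2 with 4 start sites and Prdm1 with 1. The first Zeb2 promoter is the outermost (chr2:45117443-45117692), the second is an inner one (chr2:45113280-45113529), and the Prdm1 promoter is chr10:44458749-44458998. The peaks are on mm9, so they were not placed on these sequences. Capitals mark matches, on either strand, to AGGTGTGA (T-box), CACCTG (the E-box form bound by ZEB proteins), TGTGGT (RUNX) or TTCNNNGAA (STAT).
Zeb2, start site 1: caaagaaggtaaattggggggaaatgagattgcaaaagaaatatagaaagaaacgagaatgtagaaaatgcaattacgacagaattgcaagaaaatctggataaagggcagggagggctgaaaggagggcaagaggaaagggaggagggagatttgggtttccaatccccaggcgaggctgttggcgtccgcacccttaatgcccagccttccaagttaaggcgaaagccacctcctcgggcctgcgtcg
Zeb2, start site 2: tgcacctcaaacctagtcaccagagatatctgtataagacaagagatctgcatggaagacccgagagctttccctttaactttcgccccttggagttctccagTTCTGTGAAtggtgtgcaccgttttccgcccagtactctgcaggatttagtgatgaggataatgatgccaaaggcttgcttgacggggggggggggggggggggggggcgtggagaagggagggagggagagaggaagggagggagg
Prdm1: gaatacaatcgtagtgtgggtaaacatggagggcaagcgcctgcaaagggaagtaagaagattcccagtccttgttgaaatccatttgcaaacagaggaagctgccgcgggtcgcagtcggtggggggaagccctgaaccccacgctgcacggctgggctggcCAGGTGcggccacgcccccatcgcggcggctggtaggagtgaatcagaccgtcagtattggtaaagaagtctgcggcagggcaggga
The Prdm1 promoter holds 1 CACCTG match, a sequence found in 17.2% of 32851 RefSeq promoters of this length, and 2 matches to the general E-box CANNTG (66.2% of promoters), 1 of which is the same site. The second Zeb2 promoter holds 1 STAT match (7.02% of promoters), also present in the third, which overlaps it and is not printed. The outermost Zeb2 promoter and the innermost, also not printed, hold none of these motifs. Neither gene had an AGGTGTGA match (1.12% of promoters) or a TGTGGT match (14.0%) in these windows. A match is a description of the letters, not a bound site.

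Zeb2 lost accessibility on both sides of its start site. Of its 10 named peaks, 5 were called lower, 0 higher and 5 were not called by limma, against the 12.1% and 13.8% of all peaks given above. The median log2 fold change was -0.71, against -0.01 over all peaks, and 8 of 10 peaks were below 0. At an unadjusted p under 0.05, 8 peaks were lower and 0 higher, and edgeR and DESeq2 on recovered reads called 6 and 5 lower and 0 higher. The count called lower was 5 without Rroid-deficient libraries 4 and 6, but 3 without wildtype library 3 and 3 at an adjusted p limit of 0.01. Among 812 genes with 10 or more peaks, 43 had a share of lower peaks of 50% or more, Zeb2 included, and the median share was 12.5%.

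**Figure D1:**
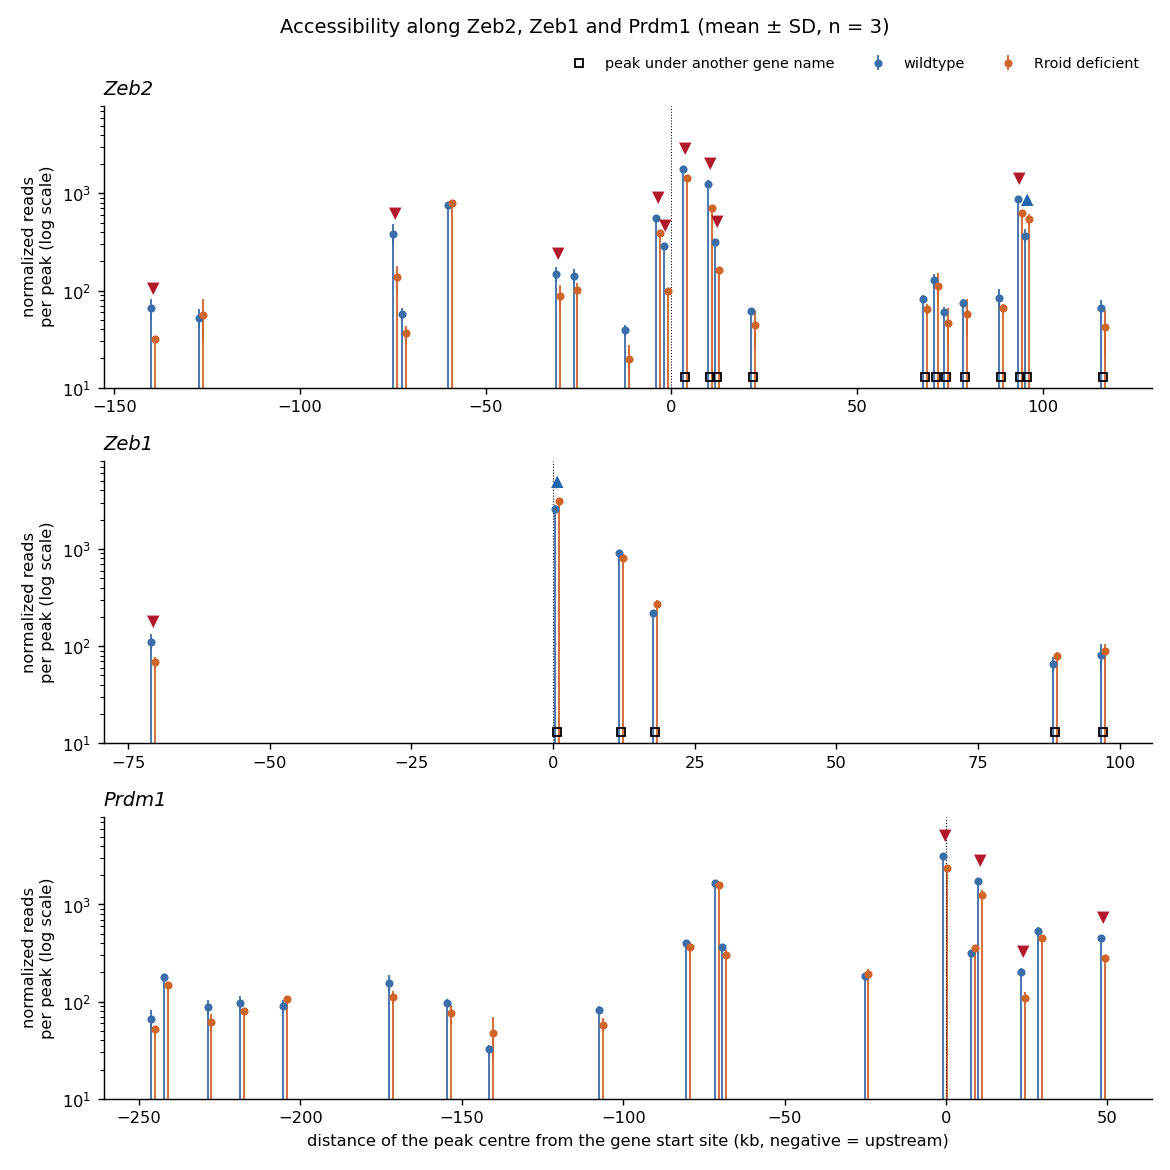
Mean normalized reads per peak (log scale, error bars SD, n = 3) against the distance of the peak centre from the start site in kb, wildtype in blue and Rroid deficient in orange. Red triangles mark the 14 peaks called lower and blue triangles the 2 called higher. Open squares mark peaks that the deposited table lists under another gene name, and at Zeb2 the lower peaks gather around the start site.

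The deepest fall among named Zeb2 peaks was 1.6 kb upstream, at chromosome 2, 44970098 to 44970609. This narrow peak is annotated as the end of another transcript. Wildtype libraries 1 to 3 held 296.5, 282.3 and 286.2 normalized reads, against 104.8, 95.2 and 100.3 in libraries 4 to 6. The replicates were tight and far apart, and the mean fell 2.88-fold, from 288.3 ± 7.35 to 100.1 ± 4.79 (log2 fold change -1.52, SE 0.16, adjusted p = 3.36e-06, limma). No peak covered the Zeb2 start site from which the deposited distances count, and the other RefSeq start sites were not placed on mm9.

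A second peak lies 3.7 kb upstream (chromosome 2, 44971768 to 44973162, intergenic), and of the named Zeb2 peaks it is the second highest. Its values were 559.2, 551.1 and 568.5 in wildtype and 415.1, 374.1 and 380.8 in Rroid-deficient libraries. The genotypes were apart, with 69.7% of the wildtype mean left (log2 fold change -0.52, adjusted p = 0.00346, limma).

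A distal peak 74.4 kb upstream of Zeb2 (chromosome 2, 45042523 to 45043795, intergenic) fell almost as deeply as the one beside the gene. It held 286.7, 379.7 and 480.6 normalized reads in wildtype and 149.9, 89.5 and 172.9 in Rroid-deficient libraries. Replicates varied more here than near the gene, yet the lowest wildtype value was above the highest of the other genotype. The log2 fold change was -1.49 (SE 0.23, adjusted p = 1.12e-04, limma). Nearer to the gene, the strongest named peak of Zeb2 (chromosome 2, 45027793 to 45028992, 59.6 kb upstream) held 709.7, 807.4 and 779.4 in wildtype and 777.1, 801.5 and 795.5 in Rroid-deficient libraries. These values overlapped, and the 95% interval of the log2 fold change ran from -0.17 to 0.27.

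Both of the remaining calls at Zeb2 were at low peaks. The peak 30.6 kb upstream (chromosome 2, 44998559 to 45000208) held 129.1, 136.9 and 177.8 in wildtype and 107.4, 59.0 and 97.9 in Rroid-deficient libraries (log2 fold change -0.77, adjusted p = 0.0235, limma). The peak 139.6 kb upstream (chromosome 2, 45108061 to 45108697) held 52.5, 59.6 and 84.0 and then 29.2, 33.3 and 32.6 (log2 fold change -1.0, adjusted p = 0.0192, limma). The genotypes were apart at both, but single libraries decided the calls. The first was lost without wildtype library 3, without Rroid-deficient library 5 and when scaled to total reads, with an adjusted p of up to 0.113 over all alternatives, and the second without wildtype library 2 or 3, or without libraries 4 and 6 together, with up to 0.127. Of the other named peaks without a call, the weakest (12 kb upstream, chromosome 2, 44980617 to 44980997) held 41.9, 33.6 and 42.0 and then 27.8, 11.4 and 19.3 (log2 fold change -1.04, adjusted p = 0.0603, limma). It was called lower by edgeR and limma-voom on recovered reads, after loess and without Rroid-deficient library 4, alone or with library 6.

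The nearest-gene rule leaves out the body of Zeb2. A further 12 peaks lie in exons or introns of the Zeb2 transcript but carry the name of a microRNA gene within it, Mir5129, or no gene name. Taking them in was decided after the data were seen. Of these 12 peaks, 4 were called lower, 1 higher and 7 were not called, where 12.1% of all peaks were lower and 13.8% higher. Their median log2 fold change was -0.44. They show that the fall runs on into the second intron. The peak 10.4 kb inside the gene (chromosome 2, 44957574 to 44959300) held 1142, 1339 and 1299 normalized reads in wildtype and 686.9, 708.2 and 726.6 in Rroid-deficient libraries. Its wildtype values were all far above the others (log2 fold change -0.83, SE 0.10, adjusted p = 1.62e-05, limma). The next peak, 12.3 kb inside (chromosome 2, 44956168 to 44956778), had 318.8, 319.3 and 316.5 against 160.5, 158.0 and 169.3, a fall to 51.1% of wildtype (log2 fold change -0.96, adjusted p = 1.10e-04, limma). The tallest peak of the locus, 3.6 kb inside (chromosome 2, 44964102 to 44966217), fell less, from 1664, 1817 and 1852 to 1460, 1375 and 1492 (log2 fold change -0.30, adjusted p = 0.0212, limma). Its call was lost without any single one of libraries 2, 3, 5 and 6, and without 4 and 6 together, with an adjusted p of up to 0.0996.

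Within 15 kb of the Zeb2 start site, 5 of 6 peaks were thus called lower, against 12.1% of all peaks. The values of the genotypes did not overlap at any of the 6, where 40.1% is the share of all peaks. This window and the next were drawn after the data were seen. Their edges follow the calls, so the contrast between them is a description only. From 20 to 90 kb inside the gene, 0 of 6 peaks were called by limma and all 6 were low, with wildtype means of 60.5 to 127.1. All 6 had a log2 fold change below 0, from -0.57 to -0.22, with 0 at an unadjusted p under 0.05 and 0 calls by edgeR, DESeq2 or limma-voom. Toward the end of the gene stood a pair of peaks that moved in opposite directions. The peak in the third intron (93.8 kb from the start site, chromosome 2, 44874392 to 44875595) fell from 865.5, 883.0 and 876.1 to 591.4, 659.7 and 648.0 (log2 fold change -0.47, adjusted p = 0.00323, limma). Its neighbour over exon 4 (95.9 kb, chromosome 2, 44872544 to 44873335) rose from 430.1, 315.1 and 356.5 to 594.1, 466.4 and 565.8 (log2 fold change 0.56, adjusted p = 0.00741, limma), the only Zeb2 peak called higher. Both calls were lost with Rroid-deficient libraries 4 and 6 left out together (adjusted p = 0.112 and 0.3, the highest over their alternatives). Outside the named and transcript peaks, 6 more peaks lay within 500 kb of the start site. Limma and edgeR called 0 of them, and 2 had an unadjusted p under 0.05, both higher.

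**Figure D2:**
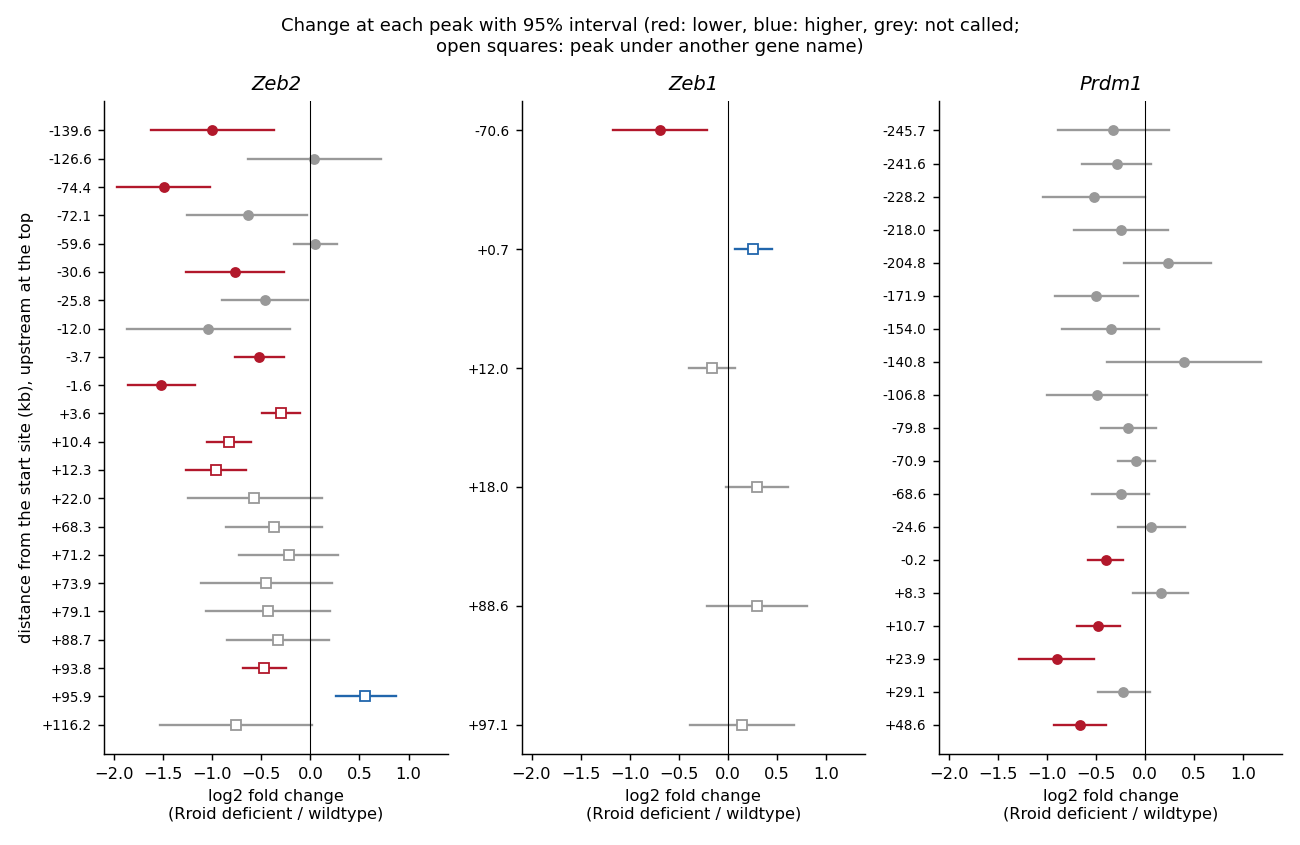
Log2 fold change (Rroid deficient over wildtype) with its 95% interval from limma for the 47 peaks of the 3 loci, each labelled by its distance from the start site in kb, upstream at the top. Red marks lower, blue higher and grey no call, and open squares are peaks listed under another gene name. At Prdm1 all 4 lower peaks are at or downstream of the start site.

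Summed over its 10 named peaks, Zeb2 held 2281, 2503 and 2712 normalized reads in wildtype and 1830, 1621 and 1807 in Rroid-deficient libraries. The sum fell to 70.2% of wildtype (log2 fold change -0.51, SE 0.09, adjusted p = 0.00151, limma over 16526 gene names), where 9.69% of gene names were called lower and 11.0% higher. The log2 ratio of the 9 distal peaks to the 1 peak within 3 kb of the start site was 2.74, 2.98 and 3.08 in wildtype and 4.04, 4.0 and 4.09 in Rroid-deficient libraries, a difference of 1.11 without overlap (exact two-sided permutation test, p = 0.1, the smallest that 3 against 3 libraries allow). The near side of this ratio is the single named peak with the deepest fall, so the ratio largely restates it. Transcript peaks under other names are not in it. By the root mean square difference of centred log2 sums over the 6 libraries, the genes most like Zeb2 among 3105 others with 5 or more peaks were Txlnb (0.040), Ccdc171 (0.042) and Tnip3 (0.046).

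Calls at Zeb1 were few and fragile. The 1 peak named Zeb1 lies 70.6 kb upstream, in an intron of the antisense gene Gm10125, also called Zeb1os (chromosome 18, 5520901 to 5521678). It held 135.3, 101.7 and 96.7 normalized reads in wildtype and 72.9, 57.1 and 75.0 in Rroid-deficient libraries. The genotypes were apart and the peak was called lower (log2 fold change -0.69, SE 0.23, adjusted p = 0.0347, limma). The call did not survive several alternatives. It was lost when scaled to total reads and without any single one of libraries 1, 2, 5 and 6, or 4 and 6 together, with an adjusted p of up to 0.121. In the test over summed gene names, with this peak alone, the adjusted p was 0.0551 by limma. The genes most like it by the measure used for Zeb2 were Tns3 (0.087), Cacna1d (0.111) and 1700112H15Rik (0.113).

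The start site of Zeb1 is covered by a tall peak that the table lists under Gm10125, whose own start site is close by, so its signal cannot be given to either gene (chromosome 18, 5591098 to 5594103). It held 2334, 2858 and 2587 normalized reads in wildtype and 3111, 3232 and 2934 in Rroid-deficient libraries. The mean was 119% of wildtype and the genotypes were apart, but narrowly (log2 fold change 0.26, SE 0.09, adjusted p = 0.0428, limma). This call was lost with DESeq2 size factors and without any 1 library except wildtype library 2, with an adjusted p of up to 0.156. Of the 4 peaks in the first intron of Zeb1, also listed under Gm10125, 0 were called by limma, edgeR or DESeq2, and 0 had an unadjusted p under 0.05. The tallest of them, 12 kb inside (chromosome 18, 5603046 to 5604583), held 871.7, 878.8 and 954.3 in wildtype and 722.7, 880.5 and 818.5 in Rroid-deficient libraries, and its 95% interval ran from -0.39 to 0.07. The peak 18.0 kb inside (chromosome 18, 5609170 to 5610559) held 207.5, 236.1 and 216.8 and then 241.4, 282.7 and 290.2 (interval -0.02 to 0.61). The remaining 2, 88.6 and 97.1 kb inside, were low, with wildtype means of 64.8 and 80.7. Within 500 kb, 12 further peaks held 1 called lower (8.33%) and 0 higher by limma, against 12.1% and 13.8% of all peaks. The counts by edgeR were the same, with 2 and 0 at an unadjusted p under 0.05.

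A ratio of the 2 Zeb genes was formed after the peaks above were seen, so it restates them on 1 scale and is given without a test. Peaks in the transcript or over the start site summed to 4955, 5221 and 5285 at Zeb2 in wildtype and 4027, 3685 and 4048 in Rroid-deficient libraries, 76.1% of wildtype. At Zeb1 the sums were 3529, 4110 and 3942 and then 4270, 4543 and 4204, 112% of wildtype. The sums run over 12 peaks at Zeb2 and 5 at Zeb1, and most of the Zeb1 sum is the start-site peak shared with Gm10125, whose call was lost in most repeats without 1 library. The log2 ratio of Zeb2 to Zeb1 was 0.49, 0.35 and 0.42 in wildtype and -0.08, -0.30 and -0.05 in Rroid-deficient libraries, a difference of -0.57 without overlap.

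**Figure D3:**
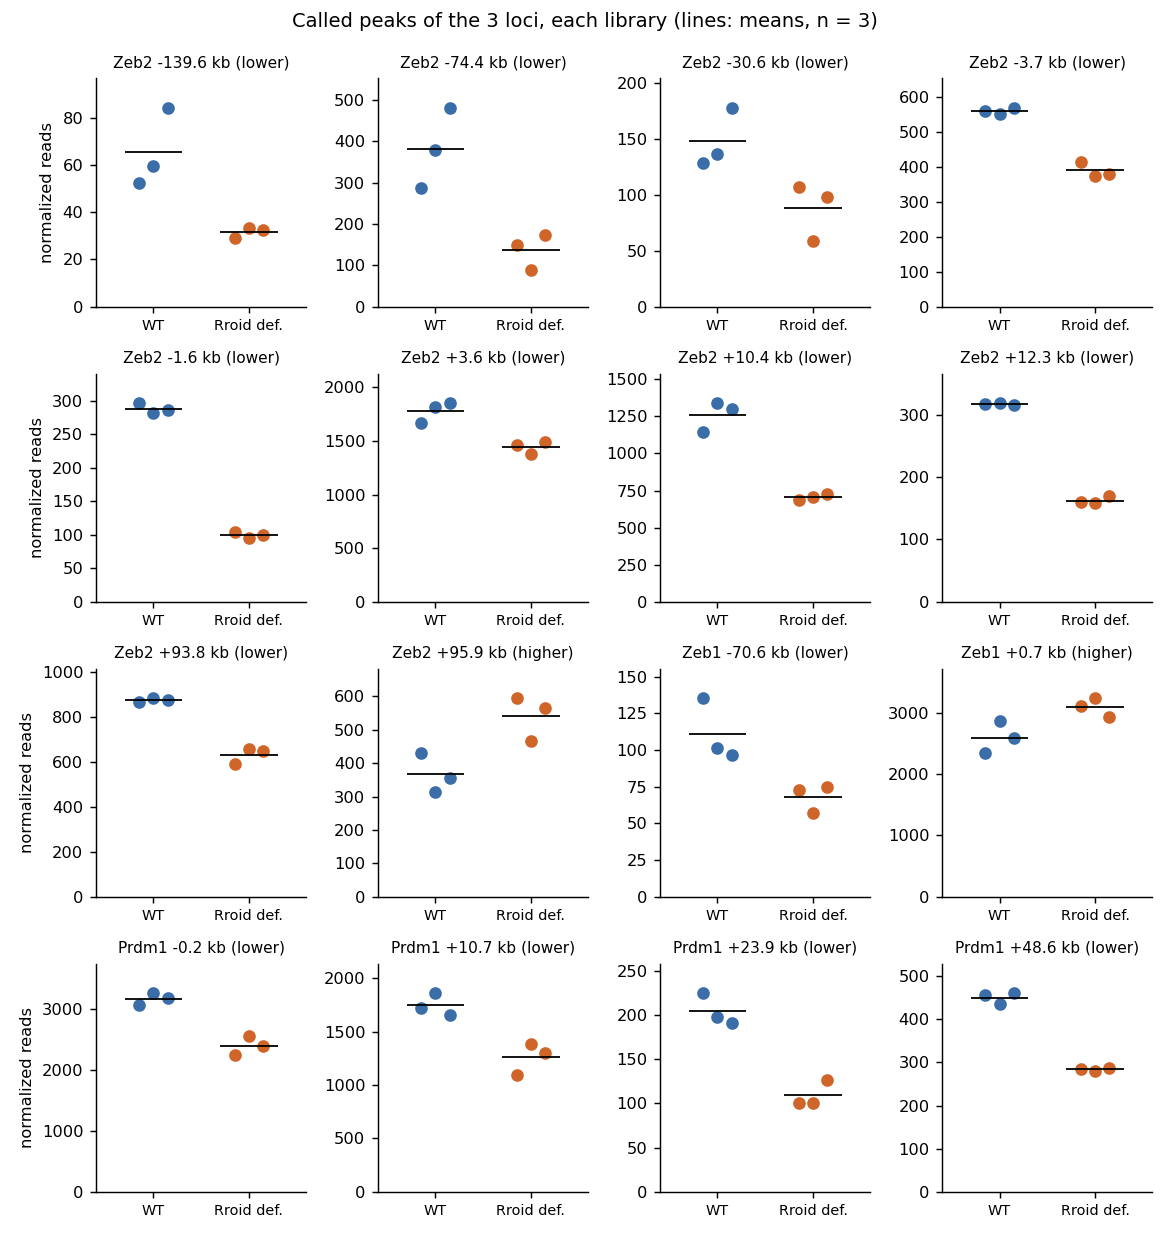
Normalized reads in each library for the 16 called peaks of the 3 loci, wildtype (WT, blue) and Rroid deficient (orange), with a line at each mean (n = 3) and a linear axis from 0. The genotypes do not overlap in any panel, and the gap is narrowest relative to the level at the Zeb1 start site (+0.7 kb).

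Among peaks under its name, Prdm1 had calls at its promoter, inside the gene and downstream of it, while none of the 13 upstream was called. Most of those 13 were low, so the calls alone do not show that upstream peaks changed less. Of the 19 Prdm1 peaks, 4 were called lower, 0 higher and 15 were not called, a share of 21.1% lower against the 12.1% of all peaks. The median log2 fold change was -0.29. At an unadjusted p under 0.05, 6 peaks were lower and 0 higher, and edgeR also called 4 and 0. Among the 812 genes with 10 or more peaks, 271 had as large a share or larger. All 4 calls were kept when any single library was left out, but 2 were left when Rroid-deficient libraries 4 and 6 were left out together. These 2 were the downstream peaks described below.

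The promoter peak of Prdm1 is broad and centred 184 bp upstream of where transcription starts (chromosome 10, 44177033 to 44180322). It held 3070, 3255 and 3182 normalized reads in wildtype and 2242, 2554 and 2394 in Rroid-deficient libraries. All wildtype values were above the others, and 75.6% of the wildtype mean was left (log2 fold change -0.40, SE 0.08, adjusted p = 0.00163, limma). In the third intron, the peak 10.7 kb from the start site (chromosome 10, 44167032 to 44168577) fell from 1724, 1858 and 1657 to 1093, 1382 and 1301 (log2 fold change -0.48, adjusted p = 0.00237, limma). A nearby peak in the second intron, 8.3 kb from the start site (chromosome 10, 44169440 to 44170986) did not follow it, with 299.2, 332.7 and 326.2 in wildtype and 335.5, 359.8 and 376.0 in Rroid-deficient libraries (95% interval of the log2 fold change -0.12 to 0.44).

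Beyond the end of Prdm1 the falls were deeper. The intergenic peak 23.9 kb from the start site (chromosome 10, 44154293 to 44154977) held 224.4, 197.4 and 190.5 in wildtype and 100.8, 100 and 126.9 in Rroid-deficient libraries. That was a fall to 53.5% of wildtype with the genotypes well apart (log2 fold change -0.90, SE 0.18, adjusted p = 0.00135, limma). The intergenic peak at 48.6 kb (chromosome 10, 44129211 to 44130493) had very even replicates, 455.9, 435.2 and 460.0 against 283.8, 280.8 and 286.5 (log2 fold change -0.66, SE 0.13, adjusted p = 8.53e-04, limma). Between them, the peak at 29.1 kb (chromosome 10, 44148903 to 44149833) held 492.4, 597.3 and 500.1 and then 473.4, 466.4 and 424.4 and was not called (interval -0.48 to 0.05).

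Upstream of Prdm1 lay 13 intergenic peaks under its name, from 24.6 to 245.7 kb away, of which 0 were called by limma, edgeR or DESeq2. An unadjusted p under 0.05 was seen at 2, both lower. The tallest of these 13 lies 70.9 kb upstream (chromosome 10, 44248919 to 44249865). It held 1560, 1742 and 1749 normalized reads in wildtype and 1554, 1594 and 1601 in Rroid-deficient libraries, which overlapped (95% interval of the log2 fold change -0.28 to 0.10). Per kb of peak width it was the most accessible Prdm1 peak, at 1776 in wildtype and 1670 in Rroid-deficient cells, against 962.9 and 728.3 for the promoter peak. Log2 fold changes of the 13 peaks ran from -0.52 to 0.40, with 10 below 0 and a median of -0.25. The 9 of them beyond 100 kb had a median of -0.33, with 7 below 0, against -0.40 at the called promoter peak. These 9 were low, with wildtype means of 32.8 to 180.2. Their standard errors were 0.17 to 0.37, against 0.08 at the promoter peak. The genotypes were apart at 5 of the 13, where 40.1% is the share of all peaks. The weakest, 140.8 kb upstream, held 62.3 and 56.8 in libraries 4 and 6 but 22.8 in library 5. A ratio formed after this pattern was seen, and so given without a test, puts it on 1 scale. The log2 ratio of the 5 downstream to the 13 upstream peaks was -0.07, -0.06 and -0.22 in wildtype and -0.43, -0.32 and -0.36 in Rroid-deficient libraries, a difference of -0.25 without overlap. It is a ratio of sums, so the tallest peak on each side weighs most. These are the peaks 10.7 kb downstream and 70.9 kb upstream, with wildtype means of 1746 and 1684. The patterns above hold for peaks under the Prdm1 name. Within 500 kb, 18 further peaks held 3 called lower and 1 higher by limma, against 12.1% and 13.8% of all peaks. The 3 within 100 kb, all downstream (56.4, 77.6 and 89.9 kb), were not called (log2 fold changes 0.17, -0.07 and 0.43). The 3 called lower lay farther upstream, 360.1, 381.9 and 387.3 kb away (-0.69, -0.57 and -0.83), and the 1 called higher 478.1 kb downstream (0.46).

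Summed over 19 peaks, Prdm1 held 9614, 10246 and 9976 normalized reads in wildtype and 7615, 8383 and 8132 in Rroid-deficient libraries, 80.9% of wildtype. The log2 fold change was -0.31 (SE 0.07, adjusted p = 0.0056, limma over gene names). When each peak counted equally, by the mean of log2 values, it was -0.27 with an adjusted p of 0.125 by limma. The log2 ratio of the 18 distal peaks to the peak at the start site was 1.09, 1.10 and 1.09 in wildtype and 1.26, 1.19 and 1.26 in Rroid-deficient libraries (difference 0.14, exact two-sided permutation test, p = 0.1, the smallest possible). The genes most like Prdm1 by the same measure were Psma1 (0.022), Tmcc3 (0.025) and Ttc39c (0.026).

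**Figure D4:**
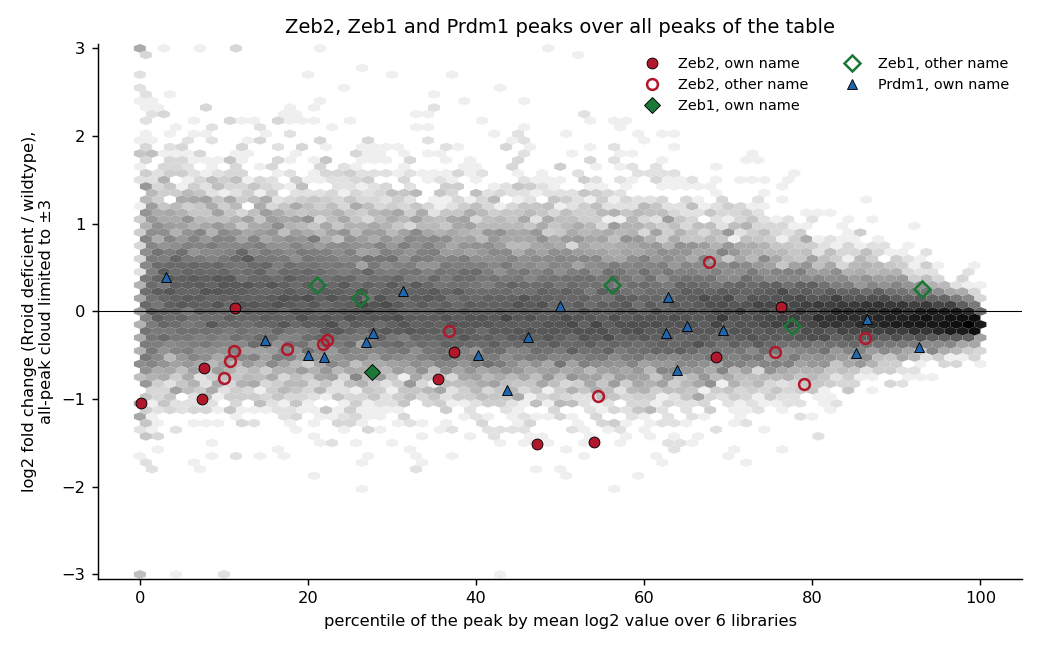
Log2 fold change against the percentile of each peak by mean log2 value over the 6 libraries, with all 51775 peaks as a grey density limited to 3 in either direction and the 47 peaks of the 3 loci as symbols. Filled symbols are peaks under the gene's own name. Of the 47 symbols, 36 lie below 0, and the grey cloud narrows toward tall peaks.

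The 30 named peaks spanned the range of peak heights, from the 0.2 to the 92.7 percentile. Together 10 were called lower and 0 higher by limma (11 and 0 by edgeR, and 15 and 0 at an unadjusted p under 0.05), 24 had a log2 fold change below 0, and the genotypes were apart at 19, where 40.1% is the share of all peaks. With the 17 transcript and start-site peaks under other names, 14 of 47 were called lower and 2 higher, against 12.1% and 13.8% of all peaks. Of the 16 calls, 13 stood under each of 9 other normalizations, tests and filters. The exceptions were 30.6 kb upstream of Zeb2 and both Zeb1 peaks.

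Genes known to act upstream of the 3 factors had more calls higher than lower. Of 162 peaks listed under 12 such genes, near or far, 53 were called higher (32.7%, against 13.8% of all peaks) and 15 lower (9.26%, against 12.1%). The other 94 were not called, and the median log2 fold change was 0.20. Tbx21, which encodes the Zeb2 inducer T-bet, and Eomes, its relative, had falling peaks only, 4 of 11 and 1 of 5, and the peak with the smallest p changed by -0.62 and -0.49 on the log2 scale. Among known repressors of Prdm1, Bach2 had 9 rising and 1 falling peak of 20 and Tcf7, which encodes TCF-1, 7 rising of 13, with 1.52 and 1.23 at their top peaks. Bcl6, another Prdm1 repressor, had 4 rising and 4 falling peaks of 15, and 1.43 at its top peak. Irf4 and Batf, which activate Prdm1 in stimulated lymphocytes, also had rising peaks only, 8 of 12 and 4 of 7, with 2.09 and 0.93. Foxo1 rose at 11 of 28 peaks and Tgfbr1 at 5 of 10 (2.25 and 1.99), Stat3 at 1 of 6 (0.68), and Tgfbr2 had 4 rising and 5 falling of 32, with -1.53 at its top peak. The top peaks of Foxo1 and Tgfbr2 lie 211.1 and 306.5 kb from the start site. That of Tgfbr1 lies 42.6 kb upstream, in an intron of another transcript. Stat5a had 0 calls by limma or edgeR at 3 peaks, 2 of them lower at an unadjusted p under 0.05. With Rroid-deficient libraries 4 and 6 left out, 34 peaks of the list were called higher and 3 lower.

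Partners through which ZEB proteins and Blimp-1 repress their targets were also counted. Of 74 peaks listed under 12 genes of corepressors and SMAD proteins, 9 were called lower (12.2%, against 12.1% of all peaks) and 3 higher (4.05%, against 13.8%). The other 62 were not called, and the median log2 fold change was -0.02. Ctbp1, Hdac1, Hdac2, Rcor1, Ehmt2 and Smarca4 had 0 calls by limma or edgeR at 15 peaks, with 2 higher at an unadjusted p under 0.05. Tle3, a Groucho corepressor, fell at 4 of 19 peaks (-0.69 at the peak with the smallest p, 255.5 kb from the start site). Kdm1a, Prmt5 and Smad2 fell at 1 each (-0.54, -0.25 and -0.88). Ctbp2 rose at 1 of 5 peaks (0.66), and Smad3 had 2 falling and 2 rising of 22 (0.81 at its top peak). Without libraries 4 and 6, 3 peaks of this list were called lower.

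Genes known to depend on these factors had calls in both directions. Of 79 peaks listed under 14 genes, 26 were called lower (32.9%, against 12.1% of all peaks) and 21 higher (26.6%, against 13.8%). S1pr5, the sphingosine receptor used in egress, fell at 3 of 4 peaks (-1.52 at the peak with the smallest p), Gzma at 7 of 8 (-1.27), Gzmb at 4 of 6 (-0.82), Itgam at 3 of 6 (-0.90) and Cx3cr1 at 2 of 3 (-0.62), each with 0 rising. Klrg1 had 4 falling and 1 rising of 8 (-0.74), and Prf1, which encodes perforin, 3 and 1 of 8 with its smallest p at the rising peak (1.32). Cdh1, which encodes E-cadherin and is the textbook target of ZEB repression in epithelial cells, rose at all 3 peaks (1.89 at the top peak), and Il2, a ZEB1 target in T cells, at 3 of 4 (0.79). Kit rose at 9 of 10 peaks (1.66), Il7r at 2 of 10 (1.01), and Cd27 and Myc at 1 each (0.78 and 0.45), with 0 falling. Without Rroid-deficient libraries 4 and 6, 14 peaks of the list were called lower and 13 higher. Cxcr6 had 0 calls by limma or edgeR at 3 peaks, with 1 higher at an unadjusted p under 0.05, and no peak was listed under Ciita. These lists were chosen with earlier results of these data known, so their direction is not independent evidence.

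**Figure D5:**
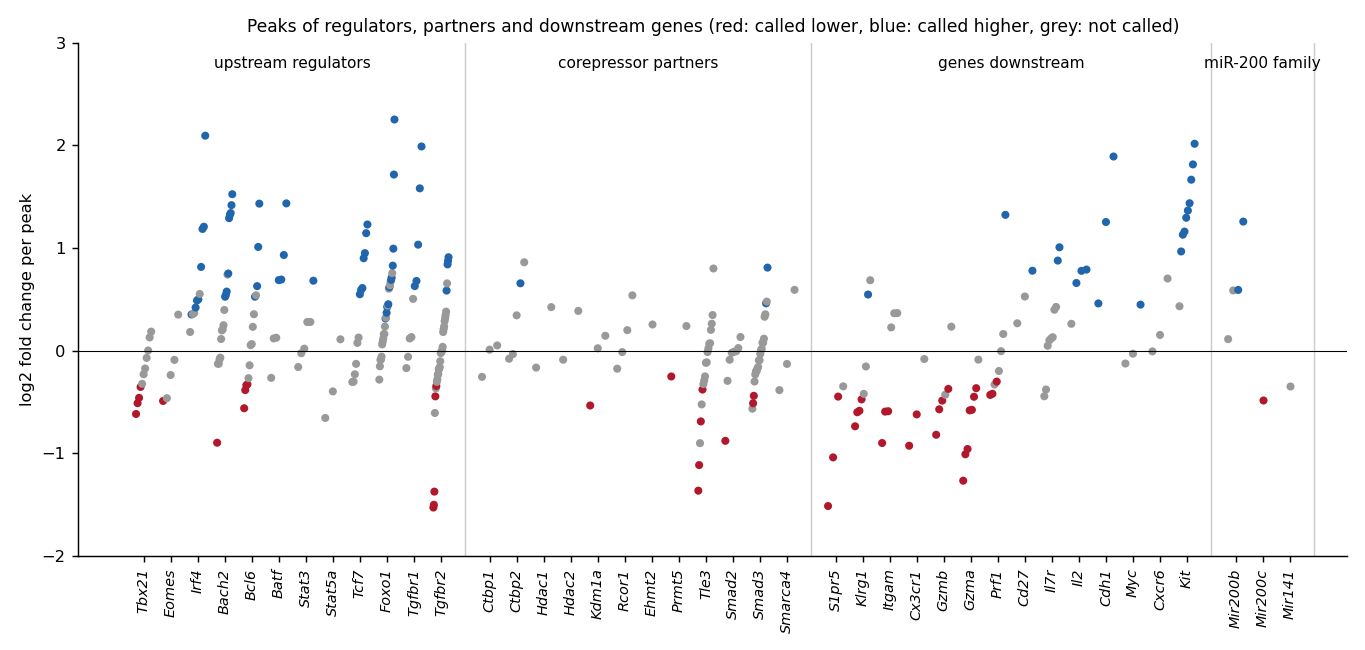
Log2 fold change of each peak, listed under its nearest gene, near or far, with 1 column per gene and points sorted by value. The genes are those acting upstream of Zeb2, Zeb1 and Prdm1, corepressor partners, downstream genes and the miR-200 genes. Red marks called lower, blue called higher and grey not called. Blue points outnumber red ones among upstream regulators (53 against 15), and downstream genes show 26 red and 21 blue.

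The miR-200 family was added after the data were seen because it targets both Zeb genes. Its mature strands fall into 2 groups by seed (bases 2 to 8, in capitals, RefSeq, build GRCm38.p6).
mmu-miR-200b-3p: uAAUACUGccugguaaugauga
mmu-miR-200c-3p: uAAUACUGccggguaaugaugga
mmu-miR-429-3p: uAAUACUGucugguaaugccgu
mmu-miR-200a-3p: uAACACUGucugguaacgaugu
mmu-miR-141-3p: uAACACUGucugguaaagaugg
The first 3 share a seed, and the last 2 share another. In the genome, Mir200b, Mir200a and Mir429 lie together on chromosome 4, and Mir200c and Mir141 on chromosome 6. Of 6 peaks under these names, 2 were called higher, 1 lower and 3 were not called. Over all peaks 13.8% were called higher and 12.1% lower, and 6 peaks are too few to set a share against these. Both rising peaks were upstream of Mir200b. The one 21.8 kb upstream (155450904 to 155452464) held 788.9, 874.6 and 803.9 normalized reads in wildtype and 1208, 1390 and 1129 in Rroid-deficient libraries (log2 fold change 0.59, adjusted p = 5.60e-04, limma). The one 4.3 kb upstream (155433482 to 155434750) rose from 52.5, 57.1 and 43.0 to 131.3, 87.6 and 158.4 (log2 fold change 1.26, adjusted p = 0.00149, limma). On chromosome 6 the peak named Mir200c lies in an intron of a neighbouring gene (124672888 to 124674771) and fell from 1150, 1115 and 1152 to 790.4, 871.0 and 788.3 (log2 fold change -0.48, adjusted p = 0.00168, limma). The Mir141 peak held 321.4, 368.0 and 358.5 and then 277.2, 279.9 and 267.2, apart but not called (adjusted p = 0.0701, limma). Expression of these microRNAs was not measured here, and a nearest name does not show which gene a peak serves.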

How the data were processed

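Per the labels, ATAC-seq libraries were made from sorted splenic NK cells of 2 genotypes, 3 each. The tools named, per the submitters' processing notes, are HOMER, DiffBind, MACS2 2.1.0, R 3.1.1, Trimmomatic 0.32, bcl2fastq 2.16.0 and BWA, on mm9. Whether reads were shifted to the cut site or duplicates removed is not given in the sources used here. As deposited, the table holds 1 normalized signal value per consensus peak and library, with HOMER's nearest gene and distance, per the file headers. In each library 100% of values were whole reads divided by 1 factor (tolerance 0.01). Median reads per peak were 151 to 224.

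Columns show the genotype, and their final numbers match no Rroid-deficient title, so replicates were used without pairing. Peaks were tested with limma-trend (limma 3.58.1, R 4.3.3) on log2 of the signal plus a pseudocount of 1, which understates changes of low peaks. It was fitted over all 51775 peaks, and again over sums per gene name. Ratios of distal to near signal within a library were compared by exact permutation. Start sites of the 3 genes were taken from the deposited distances. The peak test was tested on simulated data. Cell type markers were read at the nearest peak within 3 kb, a distance chosen after the data were seen. Also chosen then were the miR-200 list, the transcript peaks and the windows of 15 kb and of 20 to 90 kb at Zeb2. The same holds for the ratios of Zeb2 to Zeb1 and of downstream to upstream Prdm1 peaks. Alternatives were other scalings, pseudocounts of 0.5 and 5, edgeR 4.0.16, DESeq2 1.42.0 and limma-voom on recovered reads, adjusted p limits of 0.01 and 0.1, and leaving out libraries. Requiring a value of 10 in 3 libraries left out 0 peaks. All peaks of the 3 genes are accounted for, with values for start-site peaks, called peaks and the highest peak, and list genes are named by the called peak with the smallest p. The genes, lists and motifs were chosen with earlier results of these data known, and 1 listed gene and 1 marker are not reported here. The 15 peaks with no gene name entered the peak test but no sum.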

Additional observations from a re-analysis of the deposited data

How the results depend on the processing

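No paired analysis was possible because the columns of the Rroid-deficient libraries carry numbers (4, 5 and 6) that no wildtype column shares. Of the 16 calls at the 3 loci, 7 held under each of 16 alternatives (all but the p limits), and 26 of 31 peaks without a call stayed without one there. No called peak changed sign. Uncalled log2 fold changes that did were -0.13 (loess), -0.38 (without libraries 4 and 6) and -0.3 to 0.25 (1 library left out) at Zeb2 126.6 kb upstream, 0.00 to 0.09 at 59.6 kb upstream and -0.47 to 0.03 at 71.2 kb inside (1 left out), 0.00 to 0.38 (1 left out) and -0.04 (without 4 and 6) at Zeb1 97.1 kb inside, -0.5 and 0.03 (without 4 and 6) at Prdm1 140.8 and 79.8 kb upstream and -0.01 to 0.16 (1 left out) at 24.6 kb upstream.

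With Rroid-deficient libraries 4 and 6 left out, which leaves 1 library assumed to vary like the wildtype ones, counts called lower were 2 of the 4 for Prdm1 (2 within 100 kb, 4 within 500 kb, 0 in the transcript or start site), 0 for Zeb1 at each distance, 0 for miR-200, 3 for upstream regulators, 3 for partners, 14 for downstream genes and 3653 for all peaks. Counts called higher were then 0 for Zeb2 and Zeb1 at each distance and in the transcript, 1 for miR-200, 34, 13 and 3728 for upstream regulators, downstream genes and all peaks. At an adjusted p limit of 0.01, lower counts were 3 for Zeb2 peaks, 0 for Zeb1 at each distance, 9 for upstream regulators, 3 for partners and 3265 for all peaks, and higher counts 0 for Zeb1, 35, 1 and 4365. At a limit of 0.1, higher counts were 2 for Zeb2 within 500 kb, 1 and 2 for Prdm1 within 100 and 500 kb and 10 for partners, and lower counts 2 for miR-200 and 23 for upstream regulators.

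Scaled to total reads, Zeb1 had 0 lower named peaks, 0 within 100 kb and 1 within 500 kb, and partners 5 higher. With DESeq2 size factors, Zeb1 had 0 higher peaks at each distance and in the transcript. After loess, Prdm1 had 1 and 2 higher peaks within 100 and 500 kb and partners 5. By the mean of log2 values the summed change was -0.69 for Zeb1 (adjusted p = 0.0292, now called) and -0.27 for Prdm1 (adjusted p = 0.125, no longer called). A split at 1 kb gave no Zeb2 ratio.

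Leaving out 1 library gave 3 to 6 lower Zeb2 peaks, 0 to 1 lower Zeb1 peaks (within 500 kb 1 to 3 lower and 0 to 1 higher), 1 to 2 higher Zeb2 and Prdm1 peaks within 500 kb and 0 to 1 higher Prdm1 peaks within 100 kb. It gave 1 to 2 lower miR-200 peaks, 7 to 21 lower for upstream regulators, 4 to 13 lower and 2 to 5 higher for partners, and 4039 (without wildtype library 2) to 6304 lower and 5218 to 7508 higher over all peaks. Standard errors of the log2 fold change ran from 0.08 at the tallest named peak to 0.39 at the weakest, so small changes at low peaks were not detectable.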
